A study of Mus musculus with 8 samples.

Results

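The genes described here are 10 members of the signalling route that runs from cytokines of the IL-6 family to the transcription factor STAT3: the ligands Il6 and Lif, the receptor genes Il6ra, Il6st, Lifr and Osmr, the kinase gene Jak1, Stat3 itself, and the early target genes Socs3 and Cebpd. They were chosen by name for their place in the route, with earlier results of these data known. Of the 10, 9 had a probe on the array (16 probes in all, among 18749 genes with a probe), and 8 passed the filter on dim signal and were tested, among 14137 genes tested. Lif matched no probe and was not analysed here, and Il6 was too dim to be tested.

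RNA of whole mammary glands from dams that were wild type (WT) or lacked Th-POK (knockout, KO), all C57/Bl6 females at lactation day 1, was hybridized to 8 one-colour Agilent arrays, 4 of each genotype. Th-POK is a zinc finger transcription factor encoded by Zbtb7b, best known for directing T cell precursors to the CD4 lineage. The methods of the study speak of a knockout line and name no tissue-specific promoter or Cre. The comparison of KO with WT asks what loss of Th-POK does to gene expression in the gland when milk production starts.

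Cytokines of this family bind a receptor of their own, which pairs with the shared chain gp130, the product of Il6st. The paired receptors bring JAK kinases together, which phosphorylate STAT3, and phosphorylated STAT3 enters the nucleus and switches on target genes, among them Socs3, whose product shuts the receptor down again. In the mammary gland the route is best known for the end of lactation, when LIF and oncostatin M act through STAT3 to start cell death and remodelling, known as involution. Arrays measure RNA and not the phosphorylation that activates STAT3.

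STAT dimers bind DNA at palindromes of the form TTCNNNGAA, in which N is any base. This motif was searched in promoters of GRCm38.p6 from RefSeq, each 250 bases before to 50 bases after a transcription start. Since the motif is its own reverse complement, a search of 1 strand covers both. It was present in 8 of 68 other pathway genes (11.8%), in 8.54% of the genes tested and in 8.3% of the 32851 promoters. Of the 9 members with a promoter in the table, 1 held it. That member was Socs3, whose motif began at position -154 from the start. Of the 11 other pathway genes called different between genotypes, Icam1 held the stricter form TTCCNGGAA, which is contained in the first. The stricter form was present in 1.51% of the genes tested, in 0 of the 9 members and in 4 of 68 other pathway genes (5.88%). Gab1, also called, held the looser form at 1 site, which begins at -12 from 1 of its listed starts and at 28 from another. The sites of Socs3 (chr11:117969502-117969530, minus strand) and Icam1 (chr9:21015888-21015916, plus strand) are shown. They were chosen because both genes rose in KO glands and both sites, unlike that of Gab1, were matched only before a start. The motif is in capitals, and each site is written 5′ to 3′ on the strand of its gene with 10 bases on each side.
Socs3: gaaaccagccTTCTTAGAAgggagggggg
Icam1: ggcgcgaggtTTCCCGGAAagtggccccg
A match of letters is a description and does not show that STAT3 bound there.

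Signals are given as log2 of the processed intensity after quantile normalization, so a difference of 1 is a 2-fold difference. Levels compare arrays for 1 probe and not probes with each other. Genes were compared with limma, and a gene is called different when its p, adjusted by the Benjamini-Hochberg method over all 14137 genes, was under 0.05. On WT arrays 66.9% to 75.3% of probes, and on KO arrays 66.8% to 70.9%, exceeded background clearly, and 0 spots were saturated. Zbtb7b was at least 81.5-fold lower in KO. Its adjusted p of 5.71e-09 from limma belongs to the measured signals, which did not exceed background in KO, and not to this bound. Each genotype had a slide of its own, so slide and genotype cannot be told apart. In RNA of whole glands, fewer cells of a type and less RNA per cell cannot be told apart either. All 8 markers of luminal epithelium, the main cell type of the lactating gland, were well above background on every array.

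The members did not all differ between genotypes. The early target genes Socs3 and Cebpd and the oncostatin M receptor gene Osmr rose, Stat3 was higher by 1.66-fold but missed the threshold, and Il6ra, Lifr and Jak1 differed by at most 0.22 on the log2 scale, in either direction. Of the 8 members tested, 3 were called higher and 0 lower (5 and 0 at an unadjusted p under 0.05 from limma, 1 and 0 by the methods' t-test after adjustment). Among all genes tested, 7.53% were called higher, 8.96% lower and 16.5% in either direction. At an unadjusted p under 0.05 limma gave 2359 higher and 2777 lower of the 14137 genes. The methods' t-test after adjustment gave 593 and 796. The median log2 difference was 0.53 over the 8 members and -0.02 over all genes tested. The arrays of the genotypes did not overlap for 2 of the 8, Socs3 and Cebpd, both higher in KO, where 11.1% of all genes were higher without overlap and 24.1% did not overlap in either direction. Without the second WT array or without the third KO array, only Cebpd of the 8 was called. Of all genes tested, 5.43% and 3.64% were called in either direction in these fits, in that order.

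**Figure D1:**
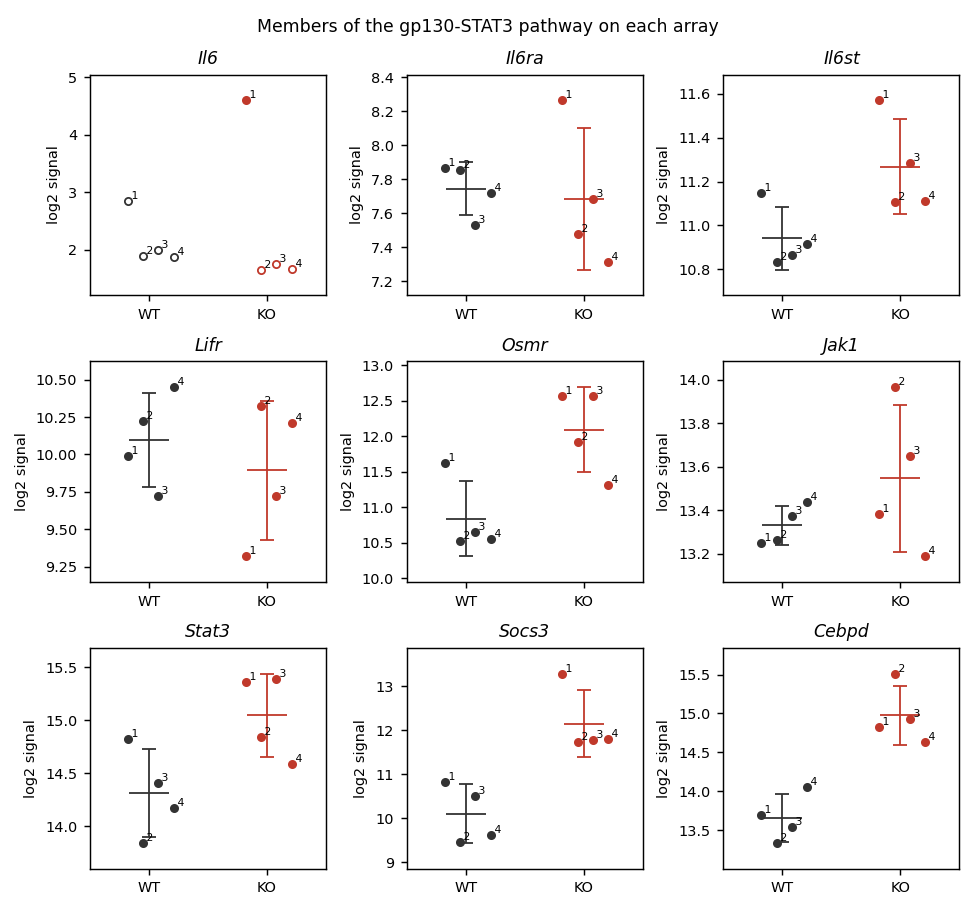
Log2 signal (y axis, a scale of its own for each gene) of the 9 members with a probe on each of the 4 WT (black) and 4 KO (red) arrays, numbered by replicate, with horizontal lines for the mean and whiskers for the SD. Socs3 and Cebpd separate the genotypes, Osmr and Stat3 overlap through the first WT array, and Il6 (open points: not well above background, no mean drawn) stands out only on the first KO array.

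Il6 encodes the ligand interleukin 6, which immune, stromal and epithelial cells release in inflammation. Its probe was printed as 10 spots on each array, of which 9 were usable on the first and second WT arrays. It was well above background on only 1 of the 8 arrays, the first KO array, where all 10 spots passed and the mean log2 signal was 4.61 (SD 0.19 over spots). On the other KO arrays the signal was 1.65, 1.75 and 1.66, and 0 spots were well above background. The WT arrays read 2.84, 1.89, 1.99 and 1.87, and 3 of 9 spots passed on the first of them and 0 on the rest. Only the first array of each genotype thus had any spot above background, and no fold change between genotypes is given.

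**Figure D2:**
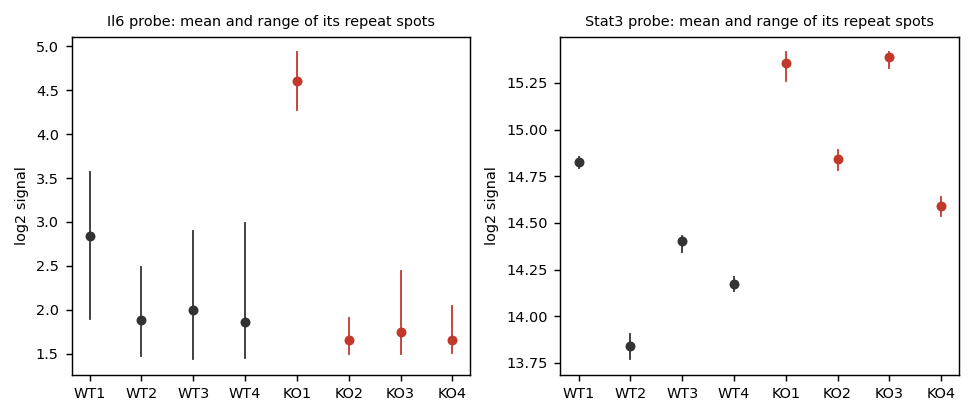
Log2 signal (y axis) of the repeat spots of the Il6 probe (left) and the Stat3 probe (right) on each array (x axis); points are means over up to 10 spots and lines run from the lowest to the highest spot. The Il6 spots of the first KO array lie between 4.27 and 4.93, above every spot of the other arrays, and the Stat3 spots of any 1 array lie within a much narrower range than the arrays do.

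Osmr encodes the receptor subunit that binds oncostatin M together with gp130. Its log2 signal was 11.62, 10.52, 10.65 and 10.55 on the WT arrays and 12.57, 11.92, 12.57 and 11.32 on the KO arrays. The first WT array read above KO array 4, so the genotypes overlapped, while the other WT arrays lay below every KO array. The difference was 1.26 (SE 0.34), or 2.39-fold, with an adjusted p of 0.0414 from limma. A second, dimmer probe for Osmr differed by 1.21, and both probes followed each other over the 8 arrays (r = 0.989). The call was close to the threshold: it was lost when any 1 of 6 of the 8 arrays was left out (all but the first WT and KO array 4), with adjusted p-values up to 0.112 and differences between 1.10 and 1.31.

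Il6st encodes gp130, the chain that all these receptors share. It read 11.15, 10.83, 10.87 and 10.92 in WT and 11.57, 11.10, 11.28 and 11.11 in KO. The first WT array lay above KO arrays 2 and 4 and the rest did not overlap. The difference of 0.33 (SE 0.14, 95% confidence interval 0.02 to 0.63) had an adjusted p of 0.120 from limma and was not called. It was higher in KO in 4 of 4 pairs of arrays with the same replicate number.

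Il6ra encodes the chain that binds interleukin 6. It read 7.87, 7.85, 7.53 and 7.72 in WT and 8.27, 7.48, 7.68 and 7.31 in KO. The first KO array was the highest of the 8 and KO array 4 the lowest, so the KO arrays spanned the whole WT range. The difference was -0.06 (95% confidence interval -0.52 to 0.40, adjusted p = 0.854 from limma), and its sign turned without the second KO array (0.010) and without KO array 4 (0.064).

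Lifr encodes the chain that binds LIF. Its brightest probe read 9.99, 10.22, 9.72 and 10.45 in WT and 9.32, 10.32, 9.72 and 10.21 in KO. The genotypes overlapped widely, with the first KO array the lowest of all. The difference was -0.20 (95% confidence interval -0.77 to 0.36, adjusted p = 0.587 from limma). The 5 Lifr probes gave differences from -0.20 to 0.11, 3 of them higher in KO and 2 lower, and correlated with each other over the 8 arrays at r between 0.22 and 0.81. Osmr and Lifr, whose products both pair with gp130, thus had separate values: Osmr was higher in KO in 4 of 4 replicate pairs and Lifr in 2 of 4, and the difference between both genes was not tested.

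Jak1 encodes the kinase bound to these receptors. It read 13.25, 13.26, 13.37 and 13.44 in WT and 13.38, 13.97, 13.65 and 13.19 in KO. The fourth KO array was the lowest and the second the highest of the 8, and the KO arrays spread more widely (SD 0.34) than the WT arrays (SD 0.09). The difference of 0.22 (95% confidence interval -0.16 to 0.60, adjusted p = 0.379 from limma) was not called.

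Stat3, the transcription factor of the route, is also a known target of its own product. Its probe was printed as 10 spots, whose SD on an array was between 0.02 and 0.05. It read 14.82, 13.84, 14.40 and 14.17 in WT and 15.36, 14.84, 15.39 and 14.59 in KO. The first WT array lay above KO array 4 and just below the second, and the other WT arrays lay below every KO array. The difference was 0.73 (SE 0.25), or 1.66-fold, and its adjusted p of 0.0755 from limma missed the threshold. When replicate numbers entered as a block, the adjusted p was 0.0268, and Stat3 was higher in KO in 4 of 4 replicate pairs, by 0.53, 1.00, 0.98 and 0.42. Leaving out WT array 1 (adjusted p = 0.0355) or KO array 4 (0.0494) also took it past the threshold.

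Socs3 encodes the feedback inhibitor that binds gp130 and JAK kinases and ends the signal. It read 10.82, 9.45, 10.51 and 9.61 in WT and 13.29, 11.73, 11.78 and 11.81 in KO. Every KO array lay above every WT array, and the first KO array stood well above the other KO arrays, which differed by less than 0.1. The difference was the largest of the 8 members, 2.05 (SE 0.43), or 4.15-fold, with an adjusted p of 0.0214 from limma. Without the first KO array the difference was 1.67 and still called. Its call failed by the methods' t-test (adjusted p = 0.0561) and when WT array 2 (0.0581) or KO array 3 (0.0528) was left out.

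Cebpd encodes C/EBPδ, a transcription factor that rises early in involution and is needed for its onset. It read 13.70, 13.33, 13.54 and 14.06 in WT and 14.82, 15.51, 14.93 and 14.63 in KO. The genotypes did not overlap, and the second KO array was the highest. The difference was 1.32 (SE 0.22), or 2.49-fold, with an adjusted p of 0.0122 from limma. It was called under all 17 alternatives, with differences between 1.14 and 1.45.

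**Figure D3:**
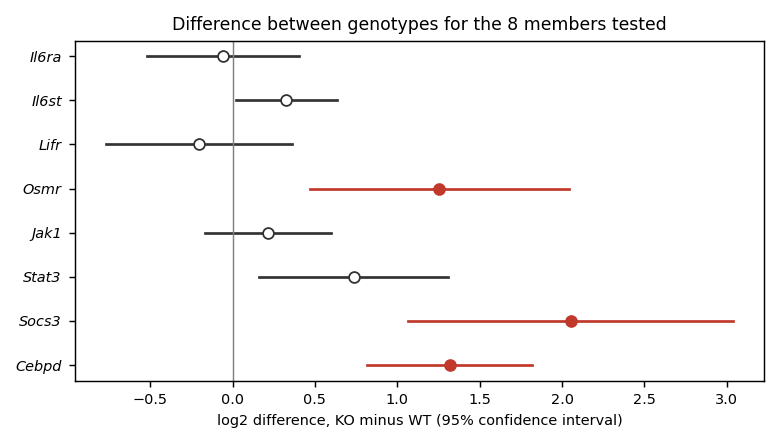
Log2 difference between KO and WT (x axis) with its 95% confidence interval from limma for the 8 members tested; red filled points have an adjusted p under 0.05 over all genes. Socs3, Cebpd and Osmr are called higher, and the intervals of Il6ra, Lifr and Jak1 include 0.

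The members did not share 1 order of arrays. Osmr and Stat3 followed each other most closely, with r = 0.966 over the 8 arrays and r = 0.931 for the deviations from the genotype means. Il6st deviated with Il6ra (r = 0.859), Socs3 (r = 0.836), Osmr (r = 0.827) and Stat3 (r = 0.801). Lifr deviated against these genes: Socs3 (r = -0.804), Il6st (r = -0.715), Stat3 (r = -0.697), Il6ra (r = -0.628) and Osmr (r = -0.619). Socs3 and Cebpd, both called, correlated at r = 0.740 over the 8 arrays, and their deviations from the genotype means at -0.19. Cebpd deviated with Jak1 instead (r = 0.832). These values describe 8 arrays that share the contrast of genotypes, and the first array of each genotype carries much of the first pattern: the first WT array was the highest WT array for Il6, Il6ra, Il6st, Osmr, Stat3 and Socs3, and the first KO array the highest KO array for Il6, Il6ra, Il6st and Socs3, level with the third for Osmr.

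The genes whose log2 signal followed Socs3 most closely over the 8 arrays were Pdlim2 (r = 0.992), Klhdc8b, Dhx35, Anxa11 and Esyt2 (r down to 0.976), with log2 differences between KO and WT of 0.46, 0.87, 0.32, 0.44 and 0.30. For Cebpd they were Itpr1 (r = 0.996), Mex3b, Tanc1, Sugct and Zmat1 (r down to 0.980), with differences between 0.47 and 0.98, the highest being that of Sugct, which was 0.39 with another background correction (normexp). For Stat3 they were Nek5 (r = 0.994), Susd6, Stk11ip, Xpc and Slc39a1 (r down to 0.986), with differences between 0.23 and 1.24. These genes were picked for following a member over the same arrays, so their differences between genotypes follow from that choice. The lists of the 3 members shared 0 genes.

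Another 93 genes of the route are given by role. Of these, 92 had a probe and 87 were tested: 58 were higher and 29 lower in KO, with a median log2 difference of 0.20, and 11 were called higher and 0 lower. That is 12.6% called, against 16.5% of all genes tested in either direction. All 11 were higher, and 7.53% of all genes tested were called higher. The lists were chosen with earlier results of these data known, so the count is no result about the route. At an unadjusted p under 0.05 limma gave 23 higher and 6 lower, where all 14137 genes tested gave 2359 higher and 2777 lower. With the replicate block 14 of the 87 were called higher and 4 lower (Il22ra1, Il31ra, Osm and Stat5a). The block called 19.5% of all genes tested in either direction. Left-out arrays moved these counts widely: 0 were called without the first or without the third KO array (0 in either direction), and 17 higher and 3 lower (Il22ra1, Pim1 and Stat5a) without KO array 4. Of all genes tested, 5.35%, 3.64% and 16.1% were called in either direction in these fits, in that order. Over all left-out arrays that share ran from 3.64% to 21.7%, so calls were lost across the series as well. Each of the 11 called genes lost its call for some of the 8 left-out arrays: Timp1 kept it in 1 of the 8 fits, Clcf1 and Socs5 in 2, Gab1, Icam1, Ier3, Junb and Mmp11 in 3, Igfbp5 and Il10rb in 4 and Tgfb3 in 5.

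Of 11 other ligands, 8 were tested, with 7 lower and 1 higher in KO and a median of -0.25. Clcf1, a cytokine that signals through the CNTF receptor, rose by 0.49 (5.95, 5.55, 5.71 and 5.90 in WT, and 6.37, 6.15, 6.48 and 6.09 in KO). The genotypes did not overlap, and the adjusted p was 0.0409 from limma. With normexp background correction the difference was 0.27 and its call was lost (adjusted p = 0.0687), as it was by the methods' t-test (0.0627) and when dim probes were kept (0.0572). Osm, which encodes oncostatin M, the ligand of the Osmr product, had a difference of -0.43 (SE 0.20). It was not called (adjusted p = 0.154 from limma), but passed with the replicate block (0.0415). Osm entered the test only through WT, the genotype in which it is higher. On KO array 3 it read 3.73, where the dimmest probe above background read 4.17. On KO array 4 it was under that limit as well, so its difference rests partly on signal at background.

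Of 9 other receptors, 7 were tested, 4 higher and 3 lower, with a median of 0.08. Il10rb, the shared chain of the receptors for interleukin 10 and interleukin 22, rose by 0.73 (SE 0.16, adjusted p = 0.0229 from limma). It was the only one of the 87 that the methods' t-test called after adjustment. Among 13 other kinases, STATs and adaptors, all tested, the median was 0.07. The adaptor Gab1, which links gp130 to the MAP kinase pathway, rose by 0.86 (SE 0.21, adjusted p = 0.0293), and its second KO array was set apart below the other 3. Stat5a, the STAT that prolactin activates to drive milk protein genes, had a log2 difference of -0.72 (SE 0.23) and an adjusted p of 0.0632, and was called only with the replicate block (adjusted p = 0.0404) or without KO array 4.

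Of 17 inhibitors other than Socs3, all tested, 14 were higher and 3 lower, with a median of 0.28, and 1 was called. This was Socs5, a member of the Socs3 family, which rose by 0.55 (SE 0.14, adjusted p = 0.0313 from limma). The family members closer to prolactin signalling were not called: Cish had a difference of 0.31 (adjusted p = 0.399) and Socs2 of 0.53 (adjusted p = 0.308). Socs1, the nearest relative of Socs3 in function, had a difference of -0.02 (SE 0.32, adjusted p = 0.967).

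Of 26 known STAT3 target genes other than the members, 25 were tested, 16 higher and 9 lower, with a median of 0.30. The 4 called, all higher, were Ier3, an early gene of stress and cytokine responses, by 1.79 (SE 0.46), the AP-1 subunit Junb by 1.53 (SE 0.32), the adhesion molecule Icam1 by 0.94 (SE 0.23), and the inhibitor of matrix proteases Timp1 by 0.62 (SE 0.17). Their adjusted p-values from limma were 0.0351, 0.0216, 0.0307 and 0.0399, and that of Timp1 was 0.0699 with the replicate block. With normexp the difference of Icam1 was 0.50 and still called. The 4 called are 16.0% of the list, against 16.5% of all genes called in either direction and 7.53% called higher. Junb read 13.11, 11.62, 12.10 and 12.22 in WT and 14.26, 13.99, 13.59 and 13.33 in KO. As for Socs3, the first array of each genotype was the highest of its group and the genotypes did not overlap. The serum amyloid genes, acute phase proteins that STAT3 drives in liver, went the other way without being called: the differences were -1.57 for Saa1, -1.42 for Saa2 and -1.98 for Saa3, with SEs of 0.87, 0.80 and 0.98. KO array 4 was far below the other KO arrays for all of them, and without it the differences were -0.61, -0.52 and -0.99.

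Of 17 genes known from mammary involution, all tested, 15 were higher and 2 lower, with a median of 0.40, and 3 were called higher. Igfbp5, a binding protein that withdraws the survival factor IGF1, rose by 1.67 (SE 0.43), the growth factor Tgfb3 by 1.42 (SE 0.33) and the protease Mmp11 by 1.30 (SE 0.29), with adjusted p-values of 0.0363, 0.0277 and 0.0234 from limma. Tgfb3 read 13.81, 12.45, 14.18 and 13.83 in WT and lay between 14.90 and 15.15 in KO. The KO arrays agreed closely, and the second WT array was the lowest. The lysosomal proteases Ctsb (0.37), Ctsl (0.85) and Ctsd (-0.24) were not called, nor were Cd14 (1.39, SE 0.73) and Clu (0.16); with the replicate block Ctsl (0.0188) and Cd14 (0.0191) passed. The 3 called are 17.6% of the list, against 16.5% of all genes called in either direction and 7.53% called higher.

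**Figure D4:**
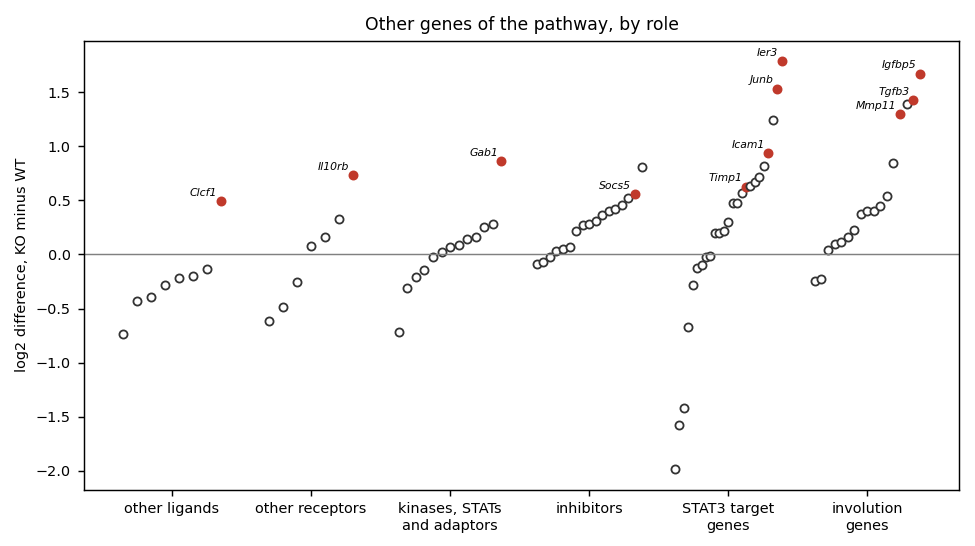
Log2 difference between KO and WT (y axis) for the 87 other pathway genes tested, 1 point per gene, ordered within each role (x axis); red filled and named points have an adjusted p under 0.05 over all genes. All called genes shown lie above 0, and the 3 lowest points are the serum amyloid genes, whose values rest largely on KO array 4.

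Markers of several cell types moved with genotype. Of 8 luminal markers 6 were higher and 2 lower in KO, and Krt18 (0.67) and Epcam (0.52) were called higher. The 2 lower, Elf5 (-0.35) and Lalba (-0.45), were not called. The sum of the linear signals of the list was 836000 to 884000 on the WT arrays and 891000 to 933000 on the KO arrays. The size of this sum, though not its rise, rests largely on Wap and Csn2, which differed by 0.07 and 0.01. Quantile normalization sets the levels of the brightest probes by rank, and Wap read 18.475 on KO arrays 1, 3 and 4. Its small difference thus cannot show that Wap was unchanged. Of 7 basal markers 5 were lower and 2 higher, and Krt17 was called lower (-1.22). The 2 higher, Trp63 (0.29) and Acta2 (0.07), were not called. The sums of the basal list were 68900 to 101000 and 63500 to 95800. Of 7 adipocyte markers 6 were higher and 1 lower (Lep, -0.73, not called), and Plin1 was called higher (0.71). Their sums were 227000 to 314000 and 312000 to 425000.

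Of 13 neutrophil markers 12 had a probe and 9 were tested. Camp and Ngp, genes of neutrophil granules, were well above background on all KO arrays and on no WT array, so they entered the test only through the genotype in which they are high. Ltf, which milk-secreting cells also make, rose by 1.31. S100a9 differed by 2.19 without overlap of the genotypes and just missed the threshold (adjusted p = 0.0566 from limma). S100a8, Mpo, Retnlg, Csf3r and Mmp9 were not called, and Elane was well above background on no array. The summed signal of the list was 67500 to 101000 in WT and 170000 to 271000 in KO, of which Ltf made up 90.1% to 97.3% on each array. Without Ltf the sum of the tested markers was 1800 to 7910 in WT and 8090 to 19400 in KO. The first KO array, the highest for Socs3 and Il6, was the highest here as well. On every KO array S100a9 gave the highest signal of these markers, so the KO sums rest largely on it.

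The sum of 6 fibroblast markers was 174000 to 220000 in WT and 215000 to 319000 in KO, with Dcn called higher, and that of 5 erythroid markers 38300 to 99700 and 96800 to 195000, with Hba-a1 called higher. Of 6 T cell markers Cd3e and Cd4 were called lower (sums 544 to 1490 in WT and 583 to 777 in KO). Macrophage (7 tested), endothelial (6 tested) and B and plasma cell markers (5 tested) had 0 called. The part of these cells in the values of Socs3, Cebpd, Osmr and the other pathway genes was not tested.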

How the data were processed

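For each array the authors deposited the output of Agilent Feature Extraction 10.7, whose processed intensity is background-subtracted and not normalized between arrays, and a table of log2 values that the authors had quantile-normalized in GeneSpring, used as an alternative. The arrays name mouse build mm9. Gene names came from probe accessions through a RefSeq table of GRCm38.p6 (27479 of 41174 probes matched).

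After removal of control spots, log2 processed intensities were quantile-normalized (limma 3.58.1, R 4.3.3) and averaged per probe, without 64 to 100 outlier spots per array. Probes had to exceed background, in more than 0.5 of their spots, on every array of WT, of KO or of both, and the brightest probe stood for a gene. The fit was KO against WT with Benjamini-Hochberg adjustment over all genes. It was tested on simulated data. For Zbtb7b, dim in KO, the fold is a lower limit: the WT mean was set against the mean, over KO arrays, of the dimmest probe that still exceeded background or the probe's own signal, whichever was higher. The number of arrays limits the precision. The authors' methods call the samples biological replicates.

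Replicate numbers 1 to 4 come from the sample titles. Across genes, the deviation of a WT array from its genotype's mean was correlated with that of the KO array of its number (r = 0.22, 0.16, 0.30 and 0.28, all over 0.1). The mean r was 0.24 for the same number and -0.08 for different numbers. Deviations sum to 0 within a genotype, which ties these means to each other, so their contrast does not establish a pairing. The numbers were thus treated as a possible pairing, though the titles do not say what arrays of the same number share. The main fit leaves the number out, and the fit with the number as a block is given where it changes a call. The members and gene lists were chosen with earlier results of these data known. A gene of these lists is not reported here, and the counts over the lists leave it out. Named are every member, other pathway genes with an adjusted p under 0.05, the 5 genes most like Socs3, Cebpd and Stat3, Zbtb7b and marker genes; the array values of Junb and Tgfb3, and Il22ra1, Il31ra, Pim1, Osm, Stat5a, Cish, Socs1, Socs2, the Saa genes, Ctsb, Ctsl, Ctsd, Cd14 and Clu, were picked after their values were seen. Alternatives were another scaling, background correction, source of values, 2 filters, the mean of a gene's probes, probes without a symbol, the block, the methods' t-test, and each array left out.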

Additional observations from a re-analysis of the deposited data

Results flagged for a closer look

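In groups of 4 arrays, a highest or lowest array far from the other 3, judged by Dixon's test on the gap over the range, was looked for in 40 groups, and chance sets apart about 1 in 20 of them. It was met in 7. Osmr on the first WT array read 11.625, against 10.52 to 10.65 on the other WT arrays. Socs3 on the first KO array read 13.289, against 11.73 to 11.81. Gab1 on the second KO array read 8.7837, against 9.20 to 9.24. Timp1 on the first WT array read 12.165, against 12.47 to 12.52. Icam1 on the first WT array read 6.1524, against 5.49 to 5.51. Il6 read 2.8413 on the first WT array, against 1.86 to 1.99, and 4.6067 on the first KO array, against 1.65 to 1.75. Of the 7, 6 lie on the first array of a genotype, and arrays of the same number were treated as possibly paired.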

How the results depend on the processing

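Each alternative changed 1 choice, except normexp. Planned on the mean signal, it was run on the median signal and its background (chosen after seeing the data), so the signal column changed with the correction. It changed no call of a member and ended that of Clcf1. Cebpd kept its call and direction under all of them, and Il6st, Lifr and Jak1 stayed uncalled with the same direction. The replicate block brought Stat3 past the threshold (difference 0.73, adjusted p = 0.0268), raised the pathway genes called lower from 0 to 4, removed the call of Timp1 and added those of Stat5a, Osm, Ctsl and Cd14, and it changed no other call of a member or of a pathway gene given with values. Of all genes tested, the block called 1525 lower, from 1266.

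Osmr lost its call with no filter on dim probes (1.26, adjusted p = 0.0643) and by the methods' t-test (1.26, 0.0924), and Socs3 by the t-test (2.05, 0.0561). Without that filter Clcf1, Timp1, Ier3 and Igfbp5 lost their calls too, and Timp1 with 75th percentile scaling. Over left-out arrays the difference ran from 1.10 to 1.52 for Osmr, 1.67 to 2.29 for Socs3, 0.58 to 0.91 for Stat3 and -0.25 to 0.06 for Il6ra, which turned without KO array 2 (0.010) or 4 (0.064).

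The methods' t-test at the methods' threshold, a p under 0.05, gave 5 members and 21 other pathway genes higher and 4 other pathway genes lower. Of all 14137 genes tested it gave 2202 higher and 2563 lower. After adjustment it called 1 member higher (Cebpd), 1 pathway gene higher (Il10rb), 0 lower, and 593 genes higher and 796 lower of all tested. Members called ran from 1 to 4 over left-out arrays, pathway genes higher from 0 to 17 and lower from 0 to 3, and all genes from 266 to 1388 higher and 249 to 1682 lower, both fewest without the third KO array. With probes without a symbol kept, 1651 were called higher, from 1065. With 75th percentile scaling, the authors' table, the stricter filter or the mean of probes, 1 pathway gene was called lower (Il22ra1). The cause was not tested. Signal over background limits Il6.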
